A study of Drosophila melanogaster with 3 samples.

Results

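The basic leucine zipper (bZIP) stress and growth transcription factors of Drosophila melanogaster were described at 10 genes, Atf3, crc, Xbp1, kay, Jra, cnc, Atf6, slbo, vri and Pdp1, out of 13945 protein-coding genes. The data are peak lists of the CG12071 protein from chromatin immunoprecipitation followed by sequencing (ChIP-seq), a method that recovers the DNA a tagged protein sits on. The genes were selected on the thresholded peaks that these same lists hold, so every count of peaks at them is a description and carries no test. A peak was given to a gene when its summit, the position of highest signal, lay inside the gene or within 2 kb of either end. Of the 10 genes, 9 held at least 1 thresholded summit and Atf6 held none, with 31 thresholded peaks in all.

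The material was whole embryos of mixed sex, collected between 12 and 24 hours of age, from 1 transgenic line that stably expresses CG12071 with green fluorescent protein (GFP) at its C-terminal end. The series holds 3 biological replicates of this 1 group and no other genotype, agent or age, so no condition can be compared with another. The promoter that drives the fusion and the genetic background of the line are not given in the sources used here, and the embryo was not separated into tissues. A description field in the labels calls the replicates input controls, but their assay, antibody and control fields point to an immunoprecipitation with its own control, and they were used as such.

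Proteins of the bZIP family bind DNA as dimers: a basic stretch touches the DNA and an adjoining leucine zipper pairs the proteins, so the choice of partner sets the sequence that is bound. Kayak (Fos) and Jra (Jun) form AP-1 at the end of the JNK kinase pathway, crc is the fly ATF4, and Xbp1 and Atf6 are switched on when unfolded protein gathers in the endoplasmic reticulum. The gene cnc encodes the fly relative of Nrf2, which acts in the oxidative stress response, slbo encodes the C/EBP that border cells need to migrate in the ovary, and vri and Pdp1 act against each other on the clock gene Clk.

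The sequences at 8 of the summits are shown first, because they are the strongest CG12071 peaks of the 6 listed genes that lie on the X chromosome or on arms 2L, 3L and 3R, with the next strongest peak of Atf3 and of Pdp1. Each is 101 bases long, with the pooled summit in the middle, is read 5′ to 3′ on the strand of the gene named, and comes from the RefSeq copy of the release 6 genome, whose coordinates are those of dm6. Capitals mark any of 4 words on either strand: AAATAT, the related word CAAATA, its variant TAAATA, and lastly TAAACA. Each was more frequent at thresholded summits of the whole genome than beside them, and the shares are given with the other words.
Atf3 peak 1, chrX:1275452-1275552, minus strand: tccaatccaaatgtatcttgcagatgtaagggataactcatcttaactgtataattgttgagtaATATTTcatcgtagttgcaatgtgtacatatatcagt
Atf3 peak 2, chrX:1277141-1277241, minus strand: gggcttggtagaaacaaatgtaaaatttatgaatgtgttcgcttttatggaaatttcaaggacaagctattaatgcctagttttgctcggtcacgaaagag
crc peak 1, chr2L:21309401-21309501, plus strand: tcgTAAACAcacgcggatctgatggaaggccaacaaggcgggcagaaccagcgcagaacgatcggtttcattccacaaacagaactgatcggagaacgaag
kay peak 1, chr3R:29773944-29774044, plus strand: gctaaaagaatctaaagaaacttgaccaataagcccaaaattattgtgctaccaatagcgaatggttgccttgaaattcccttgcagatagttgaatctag
cnc peak 1, chr3R:23190049-23190149, minus strand: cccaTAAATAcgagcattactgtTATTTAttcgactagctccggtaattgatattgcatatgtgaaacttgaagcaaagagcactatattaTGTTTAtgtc
vri peak 1, chr2L:5299357-5299457, plus strand: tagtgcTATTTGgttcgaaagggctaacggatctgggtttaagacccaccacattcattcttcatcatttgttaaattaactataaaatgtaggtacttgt
Pdp1 peak 1, chr3L:7854980-7855080, minus strand: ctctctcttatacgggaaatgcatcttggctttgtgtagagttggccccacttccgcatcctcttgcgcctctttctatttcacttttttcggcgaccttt
Pdp1 peak 2, chr3L:7850995-7851095, minus strand: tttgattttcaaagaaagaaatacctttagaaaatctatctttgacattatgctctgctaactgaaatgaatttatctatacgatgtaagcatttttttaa
The windows differ in base composition, from 47.5% A and T at crc peak 1 to 75.2% at Pdp1 peak 2. The window of cnc peak 1 holds 3 marked words, those of Atf3 peak 1, crc peak 1 and vri peak 1 hold 1 each, and the other 4 hold none.

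The lists of the single replicates and of their pooled reads each stop at 30000 entries, background included, so their lengths say nothing of how much was bound. The thresholded list was derived by the authors from them with the irreproducible discovery rate and holds 4261 peaks, each also present in the pooled list. The authors' signal value of a peak, whose scale is not given in the sources used here, served only to rank entries within 1 list, with rank 1 the strongest. A thresholded peak was called supported by a replicate when a summit lay within 100 bp among the 4261 strongest entries of that replicate. Read totals were not used here, so depth is unknown. Entries with a q-value of 0.05 or less numbered 13828, 12616 and 4015 in replicates 1, 2 and 3. The strongest 4261 entries of replicate 3 therefore included some above that q-value.

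Against the background of all genes, 27.6% of 13945 protein-coding genes held a thresholded summit in the gene or within 2 kb, beside 9 of the 10 bZIP genes. The bZIP genes are long, with a median span of 16200 bp beside 2166 bp for all genes, and longer genes held summits more often. Among genes that span over 10 kb, 56.9% of 1977 held a summit, beside 5 of 6 bZIP genes. Among genes up to 10 kb, 22.7% of 11968 did, beside 4 of 4. Of the long genes, 20.0% held 3 or more thresholded summits, beside the same 5 of 6 bZIP genes. A summit within 500 bp of a transcription start site (TSS) was present at 7 of the 10 bZIP genes, all but crc, Jra and Atf6, and at 13.4% of all genes. A peak supported by all 3 replicates was present at 6 of them, Atf3, kay, cnc, slbo, vri and Pdp1, and at 16.2% of all genes. Since peaks chose the genes, nothing is read from these gaps.

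**Figure D1:**
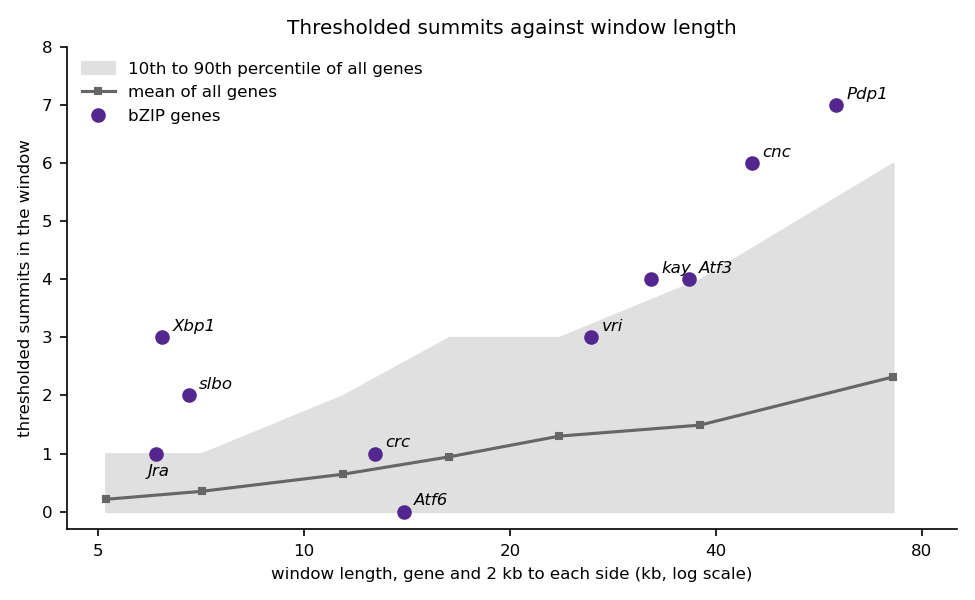
Number of thresholded CG12071 summits (y axis) against the length of the window, the gene and 2 kb to each side, in kb on a log scale (x axis). Purple points are the 10 bZIP genes, the grey line joins the means of all genes in 7 bins of window length, and the grey band runs from the 10th to the 90th percentile in each bin. Xbp1 with 3 summits, slbo with 2, cnc with 6 and Pdp1 with 7 exceed the 90th percentile of their bin, and Atf6 lies at 0.

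The plot of summits against window length shows that longer windows hold more summits in the whole genome. Windows of 6 to 10 kb held a mean of 0.35 summits over 4466 genes, and those over 50 kb held a mean of 2.32 over 357 genes. Xbp1, with a window of 6.21 kb, held 3 summits, and Pdp1, with 59.9 kb, held 7. At least 7 summits were found in the windows of 52 genes, 0.373% of all genes of any length. In windows over 50 kb, the bin of Pdp1, the 90th percentile was 6 summits.

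**Figure D2:**
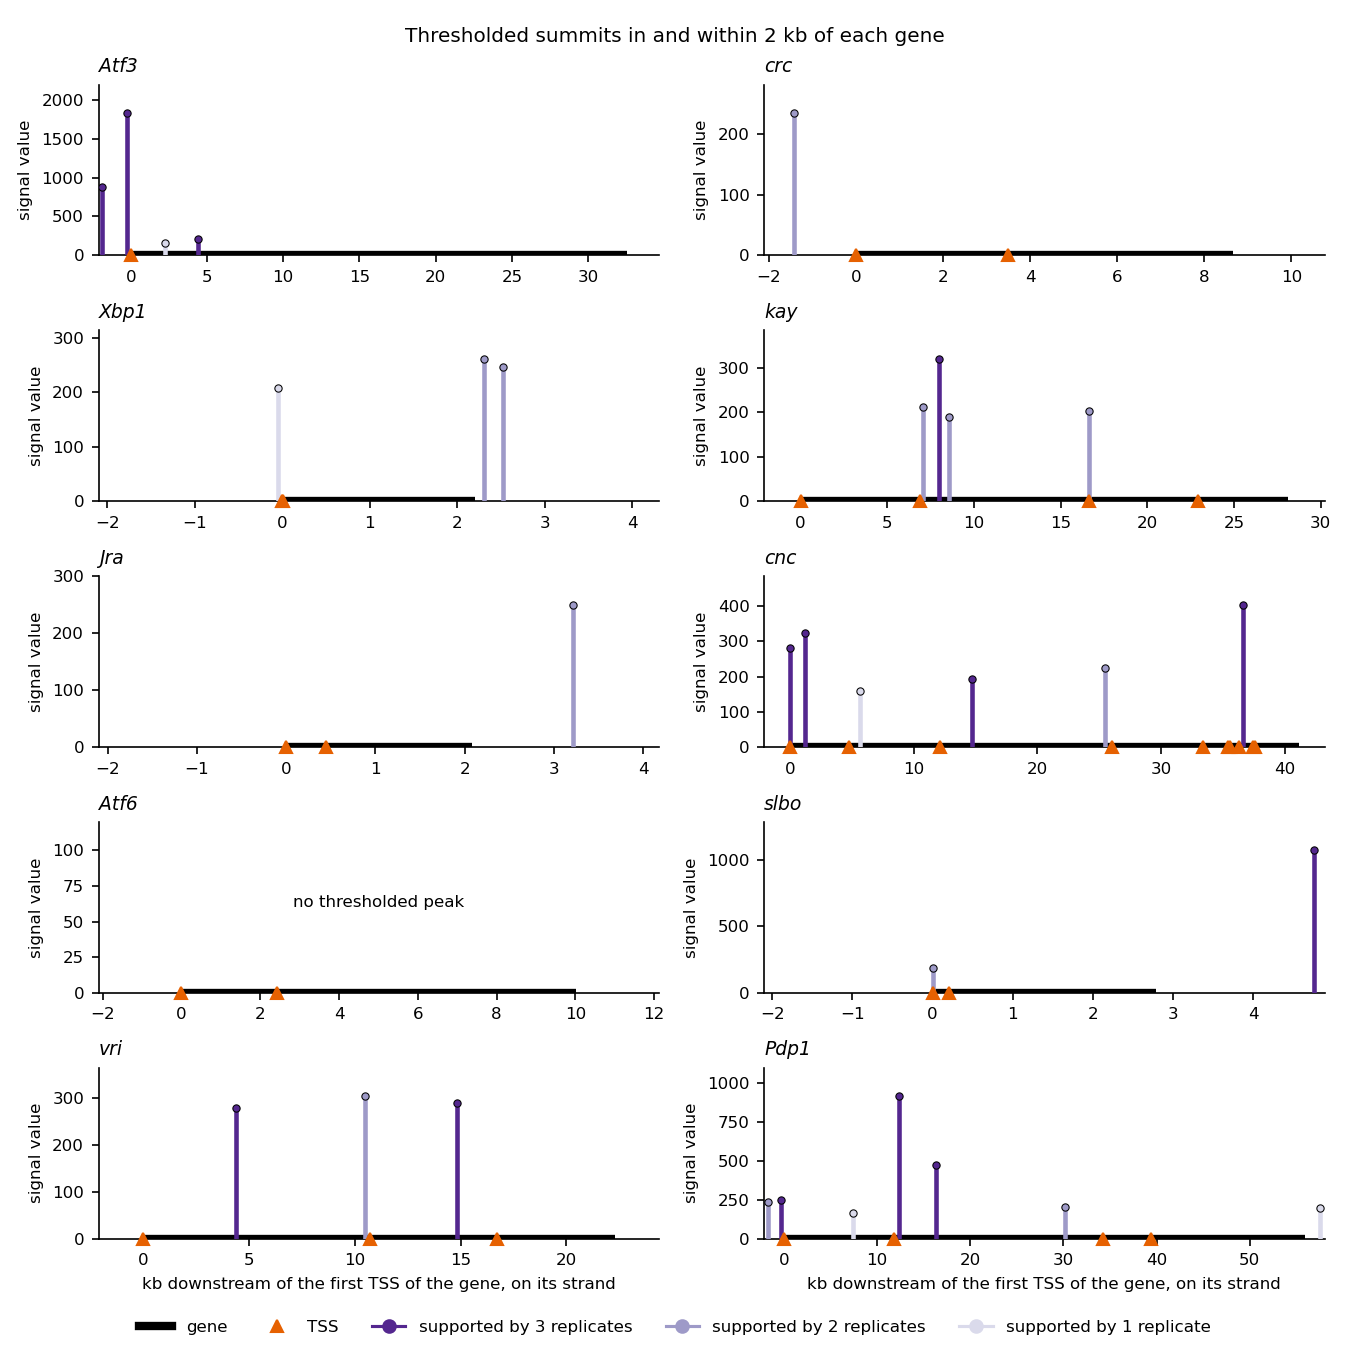
Signal value of each thresholded summit (y axis, authors' units, a scale of its own in each panel) along the 10 bZIP genes, in kb downstream of the first TSS on the strand of the gene (x axis). The black bar is the gene, orange triangles are TSSs, and the shade of a stem gives how many replicates supported the peak, from 1 (pale) to 3 (dark). The tallest peaks are those of Atf3 (1835) and slbo (1072), whereas no peak of crc, Xbp1, kay, Jra or vri exceeds 320.7.

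Atf3 encodes a bZIP protein that can pair with Jun, and it held the strongest CG12071 peak of the 10 genes. The gene (FBgn0028550) lies on X at 1242740 to 1275284 on the minus strand, and its 3 transcripts share 1 TSS. Peak 1, at 1275295 to 1275685, had its summit 218 bp upstream of this TSS, a signal value of 1835 and rank 26 of the 4261 thresholded peaks. It ranked 22, 49 and 20 in replicates 1, 2 and 3, a mean of 30.3 ± 16.2 (SD, n = 3). Replicate 2 placed it lowest, yet all 3 placed it among their strongest 50 entries.

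A neighbouring peak of Atf3 lay farther upstream, at 1277018 to 1277327, with its summit 1907 bp from the TSS and thus just inside the 2 kb window. Its rank was 168 in the pooled list and 191, 306 and 111 in the replicates, a mean of 203 ± 98.0. Replicate 2 was again lowest and replicate 3 highest. The other 2 peaks lay in intron 1, at 4429 bp and 2226 bp downstream of the TSS, with pooled ranks of 2703 and 3779. The first of these ranked 3482, 2535 and 2335 and was supported by all 3 replicates. The second ranked 5872, 4953 and 2148 and was supported by replicate 3 alone. The pooled list held 32 entries in the Atf3 window, of which 4 passed the threshold, and the strongest of the rest ranked 5345. The signal values of peak 1 were 683.1, 488.6 and 663.7 in replicates 1, 2 and 3, and those of both intronic peaks lay between 51.99 and 77.21. In each replicate the start site of Atf3 thus carried a higher signal value than its intron.

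kay encodes the fly Fos, the AP-1 partner of Jun, and held 4 peaks. The gene (FBgn0001297) lies on 3R at 29765995 to 29794113 on the plus strand and has 5 transcripts from 4 TSSs. Of its peaks, 3 cluster around the TSS shared by the transcripts RA and RG. Peak 1, at 29773947 to 29774124, had its summit in intron 1, 1102 bp downstream of that TSS, with pooled rank 1264. It ranked 1334, 1405 and 1182, a mean of 1307 ± 114, the narrowest spread relative to its mean among the strongest peaks of Atf3, kay, cnc, slbo and Pdp1. Peak 2, with pooled rank 2559, lay 182 bp downstream of the same TSS in the untranslated exon 1 of RA and RG. It ranked 1217 and 4227 in replicates 1 and 2, and replicate 3 had no summit within 100 bp but one at 134 bp with rank 2010. Peak 4, with pooled rank 3035, lay 1668 bp downstream inside the non-coding gene lncRNA:CR46110, ranked 1417 and 3170, and had no entry in replicate 3 nearer than 591 bp. Of the cluster, peak 1 was the only one with a summit within 100 bp in all 3 replicates, at offsets of 0, 51 and 25 bp from the pooled summit.

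The remaining peak of kay lay at the TSS of transcript RB. Peak 3 had its summit 20 bp into the untranslated exon 1 of RB and pooled rank 2718. It ranked 2333, 2869 and 4815, a mean of 3339 ± 1306, so replicate 3 fell outside its strongest 4261. No thresholded summit lay near the TSSs of RD and RF, whose nearest ones were 7079 and 6307 bp away. The strongest pooled entry of kay that did not pass the threshold ranked 4727.

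Jra, the fly Jun and the partner of kay, held a single peak, and it lay at a neighbouring gene. Jra (FBgn0001291) lies on 2R at 10096480 to 10098556 on the plus strand, a span of 2077 bp. The summit was 1133 bp beyond its end, 12 bp from a TSS of 14-3-3zeta and inside that gene, which encodes a phosphoserine-binding adaptor protein. The peak had pooled rank 1927 and ranked 1595 and 2111 in replicates 1 and 2, and replicate 3 held no entry at all in the Jra window. The pooled list held no further entry there. A further summit near 14-3-3zeta, with rank 1840, lay just outside the window at 2390 bp from Jra. No thresholded summit lay inside Jra itself.

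Of the members crc, Xbp1 and Atf6, which act in the integrated and unfolded protein stress responses, Xbp1 alone held a summit for which it had the nearest TSS. crc, the fly ATF4, whose translation rises when eIF2alpha is phosphorylated, lies on 2L at 21310866 to 21319527 on the plus strand (FBgn0000370). Its single summit lay 1415 bp upstream of the TSS of RA, RE and RF and 38 bp from a TSS of Mondo, inside that gene, which encodes a sugar-sensing transcription factor. The peak had pooled rank 2156 and ranked 3723 and 2626 in replicates 1 and 2. Replicate 3 held no entry in the crc window, whereas replicates 1 and 2 held 8 and 5. Besides crc, Jra was the only listed gene whose window was empty in replicate 3.

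Xbp1 encodes the factor whose mRNA the kinase and nuclease Ire1 splices when protein folding fails, and it had 1 peak at its own start. The gene (FBgn0021872) lies on 2R at 21143545 to 21145750 on the plus strand. Peak 3 had its summit 51 bp upstream of the TSS of transcript RE, with pooled rank 2626. It ranked 6410, 1155 and 5998, a mean of 4521 ± 2922, so replicate 2 alone placed it among its strongest 4261. Replicates 1, 2 and 3 gave it q-values of 0.000702, 0.00011 and 0.119. The other 2 peaks of Xbp1, which overlap each other, lay 101 and 318 bp beyond its 3′ end and 352 and 135 bp from the TSS of Hmg-2, a high mobility group protein gene. They had pooled ranks of 1790 and 1965. Peak 1 ranked 1896 and 1136 in replicates 1 and 2, and peak 2 ranked 2621, 1242 and 4411 in the 3 replicates. Replicate 2 placed all 3 peaks of this window higher than the other replicates did.

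Atf6 encodes a membrane-bound sensor of the endoplasmic reticulum that is cut free under folding stress, and it held no thresholded peak. The gene (FBgn0033010) lies on 2R at 5144733 to 5154756 on the plus strand and spans 10024 bp. The pooled list held no entry in its window, replicates 1 and 2 held none, and replicate 3 held 1 with rank 16445. The nearest thresholded summit was 898157 bp away and the nearest pooled entry 527215 bp, beside a median distance of 8612 bp to a thresholded summit over all genes. Only 69 genes, 0.495%, were as far or farther from one, of which 39 lie on the same arm. Whether the absence of entries comes from a lack of binding or from few mapped reads in that stretch of the arm was not tested. Of the 1973 genes with a window at least as long, 43.1% held no thresholded summit and 11.5% held no pooled entry.

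cnc, the fly relative of Nrf2, held 6 peaks spread over its whole length. The gene (FBgn0262975) lies on 3R at 23185580 to 23226711 on the minus strand and has 16 transcripts from 10 TSSs, which give rise to the long oxidative stress isoform and to shorter ones with a part in head patterning. Peak 1, at 23189978 to 23190188, had its summit 320 bp downstream of the TSS of RE, in an intron of 13 of its transcripts, with a signal value of 404.9 and pooled rank 856. It ranked 1011, 1091 and 719, a mean of 940 ± 196, with replicate 3 highest. Peaks 2 and 3 lay at the most upstream TSS, shared by RI, RM and RN. Peak 2 was in intron 1, 1215 bp downstream, and ranked 920, 1662 and 1224. Peak 3 was 10 bp into the untranslated exon 1 and ranked 936, 1695 and 4071. All 3 replicates supported both, although peak 3 had a q-value of 0.0515 in replicate 3.

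The remaining 3 peaks of cnc were weaker in the pooled list, and all 3 replicates supported 1 of them. Peak 4, with pooled rank 2297, lay 544 bp upstream of the TSS of RB, just beyond the 500 bp used for promoters, and ranked 2332 and 2781 in replicates 2 and 3 with no entry in replicate 1. Peak 5, with pooled rank 2942, lay in intron 1 of RL and ranked 3938, 3752 and 2900, a mean of 3530 ± 553, so that all 3 replicates supported it. Peak 6, with pooled rank 4014, lay 940 bp downstream of the TSS of RC, RJ, RK and RO and ranked 7809, 2618 and 7958, so that replicate 2 alone supported it. Summits lay within 500 bp of 2 of the 10 TSSs of cnc, 1 at each end of the gene. The strongest pooled entry of cnc that did not pass the threshold ranked 4941.

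slbo, the C/EBP gene, held the strongest peak of the 10 genes by pooled rank after that of Atf3. The gene (FBgn0005638) lies on 2R at 24331522 to 24334307 on the minus strand. Peak 1, at 24329431 to 24329718, had a signal value of 1072 and pooled rank 112. Its summit lay 1965 bp beyond the 3′ end of slbo, just inside the window, within the non-coding gene lncRNA:CR44810. The nearest protein-coding TSS was that of slbo RB, at 4545 bp. It ranked 94, 218 and 94, a mean of 135 ± 71.6, with replicate 2 lowest. A further peak with pooled rank 115 lay just outside the window, 3775 bp beyond slbo, and slbo was again the gene with the nearest protein-coding TSS, at 6355 bp.

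At the slbo start itself the signal was much lower. Peak 2 had its summit 6 bp into the untranslated exon 1 of RA and pooled rank 3012. It ranked 2426 and 3151 in replicates 1 and 2, and the nearest entry of replicate 3, at 230 bp, ranked 20886. The strong peaks of slbo were thus distal ones, and which gene they act on was not tested.

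vri encodes a repressor of Clk and held 3 peaks inside the gene, all intronic for transcript RE. The gene (FBgn0016076) lies on 2L at 5288944 to 5311223 on the plus strand, with 5 transcripts from 3 TSSs. Peak 1, at 5299373 to 5299466, had its summit 240 bp upstream of the TSS of RC, with pooled rank 1387. It ranked 2137 and 1039 in replicates 1 and 3, and replicate 2 had a summit at 115 bp with rank 1787, just beyond the 100 bp allowed. Peak 2, 1863 bp upstream of the TSS of RA, RD and RF, ranked 1338, 1879 and 1763. Peak 3, 4386 bp downstream of the TSS of RE, ranked 1605, 1581 and 2027. The 3 peaks thus had like pooled ranks of 1387, 1500 and 1595, and no replicate ranked a summit within 115 bp of them lower than 2137.

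Pdp1 encodes a PAR-domain activator of Clk with further roles in growth and muscle, and held the most peaks, 7. The gene (FBgn0016694) lies on 3L at 7811458 to 7867369 on the minus strand, with 13 transcripts from 4 TSSs. Peak 1, at 7854886 to 7855161, had its summit 518 bp downstream of the TSS shared by 7 transcripts, just beyond the 500 bp used for promoters, in the untranslated exon 1 of RB, RG, RM and RN. It had a signal value of 915.1 and pooled rank 161. It ranked 101, 103 and 756, a mean of 320 ± 378, with replicate 3 far below the other replicates, and the mean rank without it was 102. Peak 2 lay in an intron 4503 bp downstream of the same TSS, with pooled rank 640. It ranked 605, 602 and 842, a mean of 683 ± 138, again with replicate 3 lowest.

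At the outer start of Pdp1, shared by RF and RO, peak 3 had its summit 252 bp upstream and pooled rank 1947. It ranked 1030, 2882 and 4195, with a q-value of 0.0547 in replicate 3, and all 3 replicates supported it. Peak 4, 1661 bp upstream of that TSS, lay 12 bp from a TSS of CG32365 and ranked 1233, 3420 and 5278. Peak 6, 1588 bp beyond the 3′ end of Pdp1, lay 45 bp from a TSS of CG32369 and ranked 1323 and 5817 in replicates 1 and 2. Both of these fell at the starts of neighbouring genes, and replicate 1 placed them highest. Of the intronic peaks 5 and 7, with pooled ranks 2662 and 3854, the first ranked 3273, 2251 and 4438. Peak 7 ranked 3937 in replicate 1 and had no entry within 100 bp in the other replicates. Just beyond that distance, replicate 2 had a summit at 111 bp with rank 3159 and replicate 3 one at 104 bp with rank 10821. The strongest pooled entry of Pdp1 that did not pass the threshold ranked 4710, beside 3854 for its weakest thresholded peak.

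**Figure D3:**
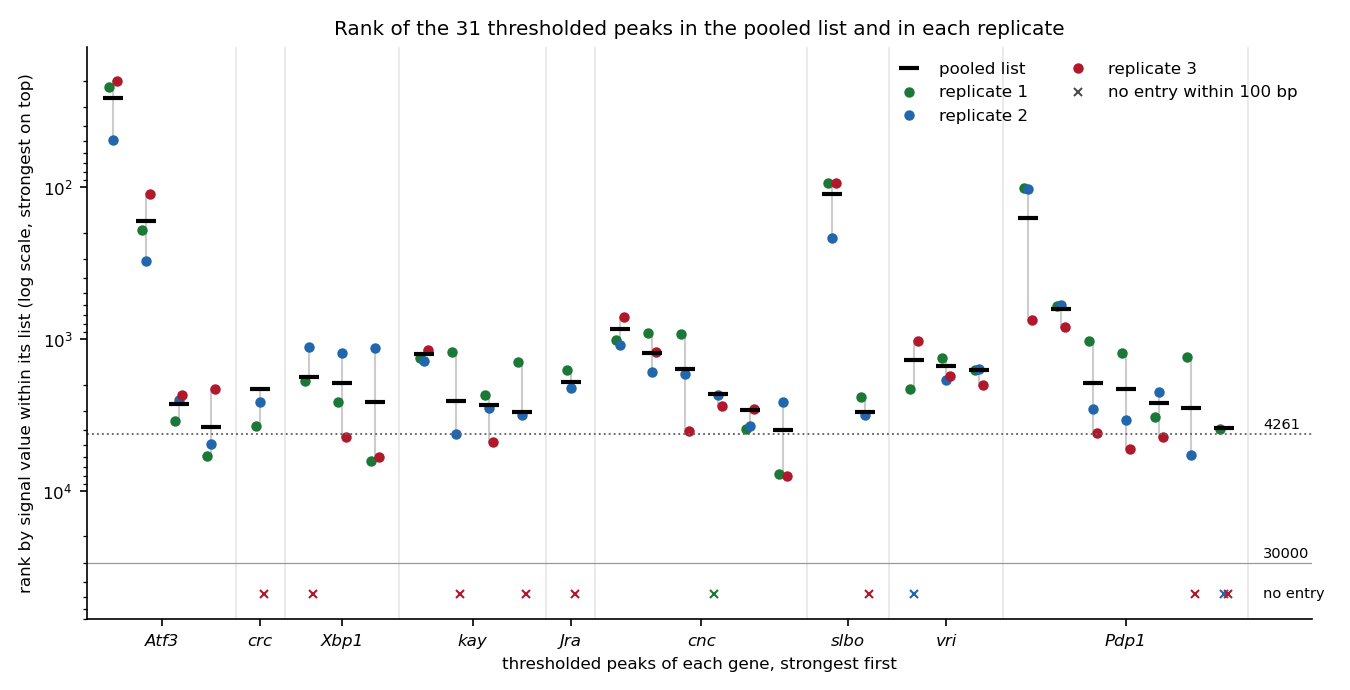
Rank by signal value (y axis, log scale, strongest on top) of the 31 thresholded peaks at 9 bZIP genes (x axis, strongest first within each gene) in the pooled list (black bars) and in replicates 1 (green), 2 (blue) and 3 (red). Crosses below the line at 30000 mark peaks without an entry within 100 bp, and the dotted line is rank 4261, the limit for support. Replicate ranks run from 20 to 49 for Atf3 peak 1, from 94 to 218 for slbo peak 1 and from 1182 to 1405 for kay peak 1. Of the 11 crosses, 8 belong to replicate 3.

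Agreement between replicates was uneven over the 31 peaks, as the plot of ranks shows. All 3 replicates supported 14 peaks, or 45.2% (Wilson 95% interval 29.2% to 62.2%, counting error only), beside 48.5% of all 4261 thresholded peaks. Of the rest, 12 peaks had the support of 2 replicates and 5 that of 1. Replicates 1 and 2 each supported 27 peaks, 87.1%, beside 76.8% and 80.0% of all thresholded peaks. Replicate 3 supported 17, or 54.8%, beside 69.7% of all. Replicate 3 had no entry within 100 bp at 8 of the 31 peaks, beside 14.7% of all thresholded peaks, whereas replicates 1 and 2 lacked one at 1 and 2. Peaks in the same gene and from the same embryos are not independent, and no test was made. A match required a summit within 100 bp, so larger offsets could not occur. Over 82 matched summits the median offset was 18.5 bp, and 53 lay within 25 bp.

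**Figure D4:**
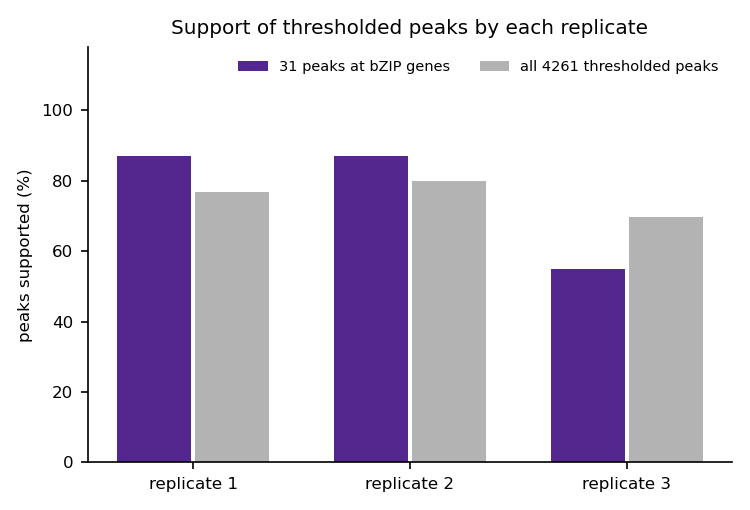
Share of thresholded peaks supported by each replicate (y axis, %), for the 31 peaks at bZIP genes (purple) and for all 4261 thresholded peaks (grey). The purple bar lies above the grey one in replicates 1 and 2 and below it in replicate 3, at 54.8% against 69.7%.

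By strength the peaks at bZIP genes were spread over the thresholded list. Their median pooled rank was 1965, beside 2131 for all thresholded peaks, and 16 of 31 were among the 2130 strongest. Ranks of 168 or better were reached by 4 peaks, Atf3 peaks 1 and 2, slbo peak 1 and Pdp1 peak 1. By position, 20 of the 31 summits lay inside the gene, 6 upstream and 5 downstream. Of the 20 inside, 15 were intronic, 14 of them in the first intron of some transcript, 5 lay in untranslated exons and 0 in coding exons. The first intron of some transcript is a loose class in genes with many transcripts. No share over all thresholded peaks stands beside these positions, so nothing particular to the bZIP genes is read from them. Summits lay within 500 bp of 11 of the 32 TSSs of the bZIP genes, 34.4%, beside 12.8% of all 19607 TSSs of protein-coding genes. Some of these TSSs share a summit, as at Xbp1 and slbo. Counted by peak, 15 of the 31 summits lay within 500 bp of a TSS of any protein-coding gene, 48.4%, beside 40.7% of all thresholded peaks. Only 9 of the 31 lay that near a TSS of the bZIP gene itself, 29%. Since peaks chose the genes, nothing is read from these shares. Another protein-coding gene had the nearest TSS at 6 of the 31 summits, namely Mondo, Hmg-2 for a pair of summits, 14-3-3zeta, CG32365 and CG32369.

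DNA words taken as sites of bZIP proteins, and the E-box CACGTG, were each found at 0 to 2 of the 31 summits. Within 50 bp to each side of the summit, on both strands, the AP-1 words TGACTCA or TGAGTCA occurred at 0 of the 31 peaks and at 1.01% of all thresholded summits, beside 1.08% of windows centred 300 bp to each side. The C/EBP words TTGCGCAA or TTGCACAA, the CREB word TGACGTCA and the PAR word TTACGTAA occurred at 0 of the 31, and at 0.962%, 0.188% and 0.117% of all. The ATF4-like word TGACGCAA lay at 2 of the 31, 6.45%, beside 0.235% of all summits and 0.258% of flanks. These were Xbp1 peak 1 and Pdp1 peak 6, whose nearest TSSs are those of Hmg-2 and CG32369. The E-box CACGTG lay at 1, Pdp1 peak 7, or 3.23%, beside 1.22% of all summits. TGCTGA, searched as the core of the word of Maf proteins, lay at Pdp1 peak 5 and at 5.19% of all summits. At all summits, each of these shares lay below that of its flanks, except for TGACGTCA, at 0.188% beside 0.141%.

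Other words were sought in the same windows. GAGAGAG lay at 4 of the 31 peaks, 12.9%, namely kay peaks 2 and 4 and Pdp1 peaks 1 and 3, and at 3.14% of all summits and 3.12% of flanks. GATAAG lay at vri peak 2 and at 7.32% of all summits, beside 5.52% of flanks. CAGCTG and TATCGATA lay at 0 of the 31, and at 5.19% and 0.634% of all. The 8-letter word whose share at all summits most exceeded that of flanks was AATATTTG, at 3.75% beside 1.16%, and among the 31 it lay at cnc peak 6 alone. The 4 words in capitals above were taken up after the data had been seen, and since they share letters, 1 stretch can match several. AAATAT lay at 26.0% of all summits, 17.9% of flanks and 7 of the 31 peaks. CAAATA lay at 19.0%, 11.2% and 6 of them. TAAATA lay at 23.0%, 15.6% and 6, and TAAACA at 17.8%, 11.0% and 5. At least 1 of the 4 lay at 52.1% of all summits and 38.1% of flanks, and at 14 of the 31 peaks, 45.2%, so the share at bZIP genes lay between those of summits and flanks. The median A and T content was 61.4% at all summits and 57.4% in flanks, and 57.4% at the 31 peaks and 55.9% in theirs. A match is a run of letters, and whether any of them is used was not tested.

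Genes that work with these factors were taken as 5 lists and set beside the 27.6% of all genes with a thresholded summit. Among other bZIP genes, 4 of 12 held one, 33.3%, with a short median span of 1253 bp. REPTOR, the target of TORC1 in the starvation response, held 7 peaks, the best with pooled rank 172 and ranks of 268, 115 and 202 in the replicates, 141 bp from its own TSS. CrebB, the cAMP response factor, had a best rank of 1111, and ranked 1068, 1589 and 1070. Irbp18, a bZIP partner of Xrp1, had rank 707, with the TSS of APP-BP1 nearest at 74 bp. CrebA, which drives secretory genes, had rank 2216.

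In the unfolded protein and integrated stress response, 11 of 16 genes held a summit, 68.8%, with a median span of 3353 bp. PPP1R15, which recruits the phosphatase that restores eIF2alpha, had pooled rank 107, with Sox14 the gene of the nearest TSS. The disulfide isomerase gene Pdi had rank 271, with CG12316 nearest. Nacalpha, a subunit of the nascent chain complex, had rank 444 at 15 bp from its own TSS. Herp, which acts in the degradation of misfolded protein, had rank 682 at 70 bp, and ranked 698, 1044 and 566. The kinase PEK and its substrate eIF2alpha, the chaperones Gp93 and Calr, and Der-1 held none. Gcn2, the other kinase of eIF2alpha in the list, held 1 summit with rank 2221, with Ugt35D1 nearest at 103 bp, and ranked 2358, 2647 and 3432. Of the 2 kinases upstream of crc, 1 thus held a summit in its window.

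In the Keap1 and Nrf2 response around cnc, 5 of 10 genes held a summit. Keap1, the repressor of the Nrf2 protein, had pooled rank 424, with kuk nearest, and Gclc, a glutathione synthesis gene, had rank 573, with CG2258 nearest. The glutathione transferase gene GstE1 had rank 837 at 21 bp from its own TSS, and the autophagy adaptor ref(2)P had rank 1686, with CG10337 nearest. The listed genes maf-S, GstD1, Trxr1, Sod1 and Cat held no summit. In the JNK pathway above kay and Jra, 9 of 13 genes held one, 69.2%, with a median span of 6957 bp. The kinase genes Mkk4 and msn had ranks 134 and 239, with SLIRP2 and RpL8 nearest. The phosphatase puc, a target of AP-1 that restrains the pathway, had rank 1201 at 45 bp from its own TSS and ranked 714, 1241 and 4889, with replicate 3 lowest. The ligand egr had rank 1215. In this list bsk, wgn, Tak1 and Rac1 held no summit.

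Around vri and Pdp1, 4 of 10 circadian clock genes held a summit, with a median span of 7163 bp. The kinase genes sgg and dco had pooled ranks 126 and 1761, the repressor cwo had rank 591 at 5637 bp from its TSS, and the light receptor cry had rank 3727. Clk, the target of both vri and Pdp1, held none, nor did cyc, per or tim. Longer genes held more summits in the whole genome, so these shares are counts and nothing particular to a list is read from them.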

How the data were processed

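The material was 3 biological replicates of embryos of the CG12071-GFP line, mapped to dm6 per the labels. Peaks were called by the authors for each replicate and for pooled reads against the same control, and thresholded by the irreproducible discovery rate, per the sample file records. No source used here names the aligner or peak caller. The deposited score is the signal value of a peak, used for ranks within 1 list. The deposited −log10 q-value was read back as a q-value. The deposited summit offset (column 10) gave summits. The pooled and replicate lists end at 30000 entries, so weak sites may be missing from them, the thresholded list holds 4261, and depth is unknown.

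Gene models were Ensembl release 115 (BDGP6.54) and sequence was RefSeq release 6. Windows were each gene and 2 kb to each side, promoters 500 bp around a TSS, motif windows 101 bp, and flanking windows were centred 300 bp to each side of the summit. Only TSSs of protein-coding genes were used, also for the nearest TSS of a summit. Intervals are Wilson 95% intervals. No p-value was computed, since only 1 group exists. The members, gene lists and motifs were chosen with earlier results of these data known. The text names all members, genes with the nearest TSS to a member's summit and the 4 strongest genes of each list. Gcn2 and the listed genes without a summit were named after their values were seen. CG12850, Prx2540-1 and Jafrac1, which the annotation does not hold under those symbols, were dropped. Alternatives changed the flank, the promoter window, the summit distance, the threshold, the motif window and the replicates used. Scripts ran in Python 3.11.15 (pandas 2.3.3, NumPy 2.4.6, matplotlib 3.10.9, SciPy 1.17.1) and were tested on simulated data.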

Additional observations from a re-analysis of the deposited data

How the results depend on the processing

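Of 44 alternatives for counts and shares, 29 left a count within 1.5 times of the reported one or a share within its interval, and 15 moved it. The number of bZIP genes with a thresholded summit was between 6 and 9, while the share of all genes ran from 12.3% for the gene span alone to 39.3% with 5 kb flanks. The 31 peaks became 20 within the gene span alone and 16 among the 2130 strongest. Keeping peaks that both other replicates supported gave 15 without replicate 1, 15 without replicate 2 and 24 without replicate 3, where all 3 gave 14. Over all thresholded peaks the shares were 58.0%, 54.1% and 64.7%, where all 3 gave 48.5%, so the rise without replicate 3 was also seen in the whole list. The same step left between 6 and 9 genes with a supported peak and between 3 and 5 with a promoter peak, beside 7 reported, and the 2130 strongest peaks gave 4. Of all genes, between 17.3% and 21.2% held a supported peak under that step. The promoter share of all genes was between 7.0% and 9.59% under that step and 7.54% for the 2130 strongest peaks. The share of summits with AATATTTG was 2.32% (flanks 0.516%) within 25 bp and 6.31% (flanks 2.72%) within 100 bp. With a summit required within 500 bp of a TSS, the lists held 2 of 12 other bZIP genes and 7 of 16 unfolded protein and integrated stress response genes. They held 3 of 10 Keap1 and Nrf2 genes, 5 of 13 JNK genes and 2 of 10 clock genes. Of all genes, 13.4% held such a summit. The mean replicate rank of the strongest peak of Pdp1 went from 320 to 102 without replicate 3. Without 1 replicate it was between 21.0 and 35.5 for Atf3, 94.0 and 156 for slbo, 865 and 1051 for cnc, and 1258 and 1370 for kay. No paired analysis was possible because the series holds 1 group. The threshold drew on all 3 replicates, so leaving 1 out does not remove its part in the list. Replicate 3 has the fewest entries that pass a q-value of 0.05, which limits what its missing entries show.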
